A study of Oryza sativa with 8 samples.

Results

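The short arm of rice chromosome 4 was taken as the stretch of IRGSP-1.0 from position 500001 to 8000000, and its members were the differentially methylated regions (DMRs) whose midpoint lay there. Of 100479 DMRs listed in 4 comparisons, 3337 were on the short arm, and 620 of the 19182 genes in any of the 4 gene tables had an interval that overlapped it. The long arm, with midpoints from 12000000 to 35000000, held 5445 DMRs and served as the reference.

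DNA methylation is the addition of a methyl group to cytosine, and in plants it occurs at CG, CHG and CHH sites, where H is A, T or C. Heterochromatin is compact chromatin that is rich in transposable elements and is usually heavily methylated, and small RNAs and chromatin remodelling enzymes help to keep it so. In rice, the short arm of chromosome 4 is known from cytology as largely heterochromatic, while most of the long arm is euchromatic. The lists used here carry no repeats, methylation levels or cytosine contexts, so whether the short arm interval is heterochromatic in these plants was not tested.

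Whole-genome bisulfite sequencing had been done on DNA of mature field-grown rice, labelled as shoot tissue and described in the methods as leaf. Plants of the lines Ox1 and WYG7 were grown, each from parent seed of low (LN) or high (HN) nitrogen content, in a field with 300 kg N per hectare (HN field) or with 0 (NN field). The first line, Ox1, is 1 transgenic line that overexpresses OsNAR2.1, a partner protein of nitrate transporters, under the OsNAR2.1 promoter. The other, WYG7, is the wild-type cultivar Wuyungeng 7, from which Ox1 was made. There were 8 libraries, 1 for each condition, and the LN plants were compared with the HN plants of the same line and field, so that the 4 comparisons share no library. A DMR is called hyper where methylation was read as higher in LN than in HN plants, and hypo where it was lower. The lists themselves do not name the library taken as control.

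With 1 library a condition, no comparison has a test of its own. The 95% intervals given here cover counting error over DMRs only, and neighbouring DMRs are not independent. The sole test was a two-sided exact permutation of signs over the 4 comparisons, whose smallest possible p is 0.125, so that it cannot pass 0.05. The 4 comparisons concern the same arms of one genome, so a sign shared by all of them is not independent replication. The depth behind each DMR is unknown, and a region that is missing from a list may have had too few reads or a smaller difference, so its absence does not show equal methylation.

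DMRs were denser on the short arm than on the long arm in every comparison. In the HN field the short arm of Ox1 had 857 DMRs, or 114.3 per Mb, against 1439 on its long arm, or 62.6 per Mb. The short arm of WYG7 had 1001 DMRs there, or 133.5 per Mb, and the long arm had 1499, or 65.2 per Mb. In the NN field the short arm of Ox1 had 654 DMRs, or 87.2 per Mb, and the long arm had 1106, or 48.1 per Mb. The short arm of WYG7 had 825 DMRs, or 110 per Mb, and the long arm had 1401, or 60.9 per Mb. WYG7 in the HN field thus had the densest short arm and Ox1 in the NN field the sparsest, and both arms kept that order of comparisons.

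The ratio of short arm to long arm density was 1.83 (95% interval 1.68 to 1.99) for Ox1 and 2.05 (1.89 to 2.22) for WYG7 in the HN field, and 1.81 (1.64 to 2.00) for Ox1 and 1.81 (1.66 to 1.97) for WYG7 in the NN field. Its log2 averaged 0.90 ± 0.09 (SD, n = 4 comparisons) and was positive in 4 of 4, with an exact permutation p of 0.125, the smallest this design allows. These 4 values concern the same arms and are not independent. Both directions took part. The ratio was 1.70 to 2.32 for hyper-DMRs and 1.75 to 1.87 for hypo-DMRs. The short arm made up 3.14% to 3.47% of all DMRs of a comparison.

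**Figure D1:**
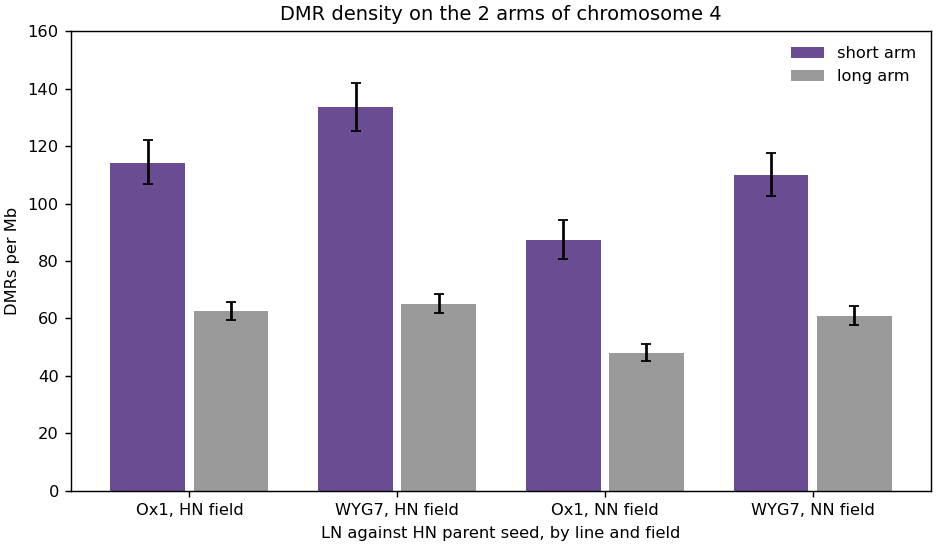
DMRs per Mb (y axis) on the short arm and the long arm of chromosome 4 for LN against HN parent seed in each line and field (x axis); bars are counts divided by length and error bars are exact Poisson 95% intervals over DMRs. The short arm bars stand at 87.2 to 133.5 per Mb and the long arm bars at 48.1 to 65.2 per Mb.

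The short arm was also set against the other 11 chromosomes in windows of 500 kb. Its 15 windows had a median of 61 DMRs for Ox1 in the HN field, against 32 over the 668 windows of the other chromosomes, and of 64 for WYG7 there, against 32. The medians in the NN field were 44 on the short arm and 25 elsewhere for Ox1, and 62 and 33 for WYG7. Of the 15 short arm windows, 13 for WYG7 in the NN field and 14 in each of the other comparisons were above the median of the other chromosomes. High density was not particular to the arm, since 5.39% to 9.73% of the other windows reached the short arm's median.

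The dense stretch did not end at the border of the interval. From 8 to 12 Mb, between the arms, there were 117.5 DMRs per Mb for Ox1 and 118.8 for WYG7 in the HN field, and 111.8 for Ox1 and 124.8 for WYG7 in the NN field. In 3 of the 4 comparisons these were higher than on the short arm, the exception being WYG7 in the HN field. From 12 to 15 Mb the density was 65.3 to 95 per Mb, in the thin stretch from 15 to 16 Mb it was 13 to 20 per Mb, and from 16 to 35 Mb it was 46.8 to 64.1 per Mb. These borders were set after seeing the counts. At the other end, the first 500 kb of the short arm interval was thin, with 31 DMRs for Ox1 and 21 for WYG7 in the HN field and 24 for Ox1 and 29 for WYG7 in the NN field. The 500 kb before the interval held more. There were 46 DMRs for Ox1 and 38 for WYG7 in the HN field, and 38 for Ox1 and 49 for WYG7 in the NN field.

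DMRs covered 3.35% of the short arm and 1.80% of the long arm for Ox1 in the HN field. The shares for WYG7 there were 4.52% and 1.99%. DMRs of the NN field covered 2.53% of the short arm and 1.37% of the long arm for Ox1, and 3.54% and 1.85% for WYG7. By their medians, single DMRs were slightly longer on the short arm. Their median length was 234 bp on the short arm and 232 bp on the long arm for Ox1 in the HN field. For WYG7 there the medians were 246 and 230 bp. They were 241 and 225 bp for Ox1 in the NN field, and 263 and 239 bp for WYG7. The difference was 2 to 24 bp in 4 of 4 comparisons (exact permutation p = 0.125). The share of DMRs of at least 500 bp differed by -1.44 to 2.04 percentage points between the arms, and the interval of each comparison held 0.

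The direction of DMRs on the short arm was near that of the whole list in 3 comparisons. Ox1 in the HN field had the highest share of hyper-DMRs, where 634 of 857 short arm DMRs were hyper, or 74.0% (95% interval 70.9 to 76.8), against 72.8% on the long arm and 75.4% of all DMRs of that comparison. Ox1 in the NN field had the lowest, where 210 of 654 were hyper, or 32.1% (28.6 to 35.8), against 34.2% on the long arm and 33.7% of all. Of the DMRs of WYG7 in the NN field 531 of 825 were hyper, or 64.4% (61.0 to 67.6), against 64.0% on the long arm and 64.5% of all. The difference from the long arm was 1.15 percentage points for Ox1 in the HN field, -2.07 for Ox1 in the NN field and 0.41 for WYG7 in the NN field, and each interval held 0.

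WYG7 in the HN field stood apart. There 527 of 1001 short arm DMRs were hyper, or 52.6% (49.5 to 55.7), against 46.4% on the long arm and 45.9% of all DMRs, a difference between the arms of 6.22 points (2.22 to 10.2). Over the 4 comparisons the difference averaged 1.43 ± 3.48 points (SD, n = 4) and was positive in 3 of 4 (exact permutation p = 0.625). It did not hold across comparisons.

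**Figure D2:**
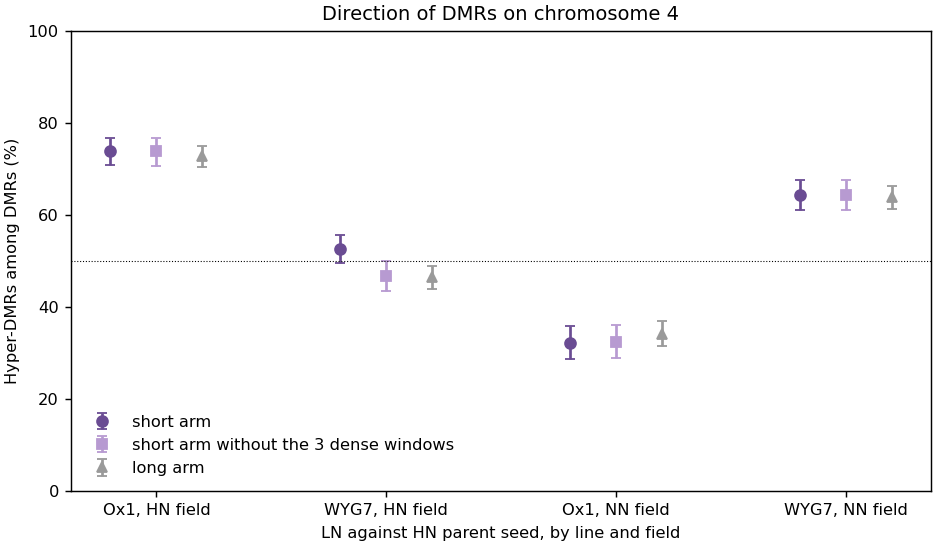
Share of hyper-DMRs (y axis, %) on the short arm, on the short arm without its 3 dense windows and on the long arm, for LN against HN parent seed in each line and field (x axis), with Wilson 95% intervals over DMRs. For WYG7 in the HN field the short arm stands at 52.6%, but at 46.7% without the dense windows, beside 46.4% on the long arm.

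For WYG7 in the HN field, 3 windows of 100 kb were dense in hyper-DMRs. They are the windows with more than 3 times the arm's median of 12 DMRs, and they were set apart after seeing the counts. The window chr4:1900001-2000000 held 40 DMRs, of which 37 were hyper, and DMRs covered 30.6% of it. The window chr4:5200001-5300000 held 43 DMRs, 40 of them hyper, with 17.1% covered. The window chr4:6900001-7000000 held 43 DMRs, 41 of them hyper, with 13.9% covered. The next highest window of the arm held 27. Across the genome, 50 of 3724 windows, or 1.34%, had more than 36 DMRs in this comparison, and 0 of them were on the long arm. Such windows mostly held one direction, since 46 of the 50 had at least 90% of their DMRs in one direction, 32 of them hyper and 14 hypo.

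The other comparisons did not share these peaks. The first window held 9 DMRs for Ox1 in the HN field, 7 for Ox1 in the NN field and 7 for WYG7 in the NN field. The second held 9 for Ox1 in the HN field, 3 for Ox1 in the NN field and 4 for WYG7 in the NN field. The third held 2 for Ox1 in the HN field, 4 for Ox1 in the NN field and 3 for WYG7 in the NN field. All 9 of these counts were below the median window of their own comparison, which held 11 DMRs for Ox1 in the HN field, 8 for Ox1 in the NN field and 10 for WYG7 in the NN field. WYG7 in the HN field had 126 DMRs in these places, and 15.9% of them met a DMR of some other comparison, against 61.3% of the 875 DMRs elsewhere on the arm. The windows were chosen as peaks of that list alone, so this contrast follows in part from the choice.

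The 3 windows made up 4% of the arm and held 12.6% of its DMRs and 22.4% of its hyper-DMRs for WYG7 in the HN field. Without them the hyper share was 46.7% (43.5 to 50.1), the difference from the long arm was 0.31 points (-3.83 to 4.47), and the density ratio was 1.86 (1.71 to 2.03). Leaving out the same windows gave ratios of 1.86 for Ox1 in the HN field, 1.85 for Ox1 in the NN field and 1.85 for WYG7 in the NN field. Without them the short arm of WYG7 in the HN field was still denser than the long arm. The windows were chosen for their counts there, and 93.7% of their DMRs in that comparison were hyper. Leaving them out of the short arm alone thus lowers its density ratio and its hyper share by construction. In the other comparisons they were sparse, so leaving them out raises the ratio. With other arm borders, longer or merged DMRs, the densest 500 kb window left out or weighting by length, the hyper share difference of WYG7 in the HN field was 4.65 to 8.70 points. Ox1 in the NN field had 1 window past 3 times its own median, chr4:7700001-7800000, with 25 DMRs. That window was rich in every list, with 25 DMRs for Ox1 and 20 for WYG7 in the HN field and 28 for WYG7 in the NN field.

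**Figure D3:**
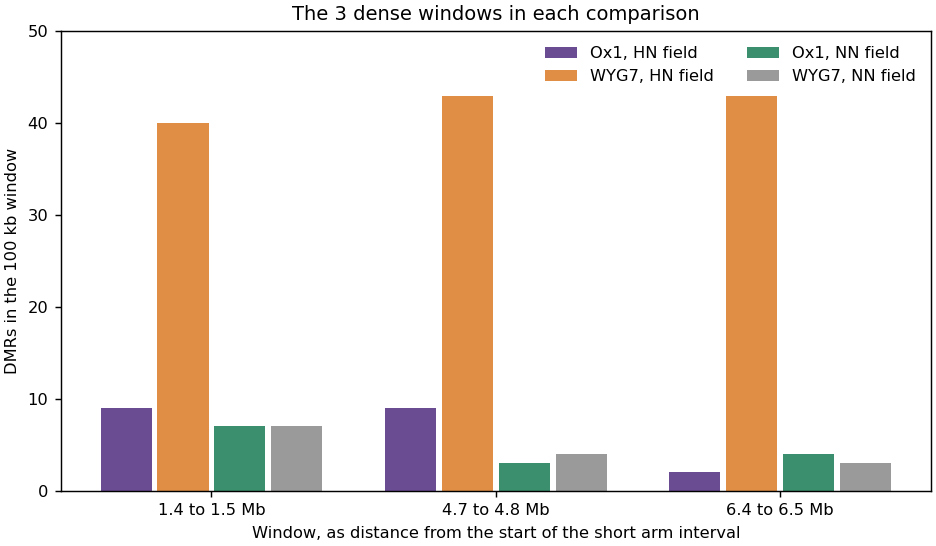
DMRs (y axis) in the 3 dense windows of 100 kb, named by their distance from the start of the short arm interval (x axis), with 1 bar for each comparison of LN with HN parent seed. WYG7 in the HN field had 40, 43 and 43 DMRs and the other comparisons had 2 to 9.

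In and beside these windows hyper-DMRs followed one another without a hypo-DMR between them. The short arm of WYG7 in the HN field had 5 runs of at least 15 DMRs of one direction, all hyper. A run of 31 DMRs at chr4:1915849-1964585 covered 56.3% of its 48.7 kb, and a run of 15 at chr4:1998818-2018291 covered 69.9% of its 19.5 kb. A run of 33 lay at chr4:5172138-5240605, a run of 16 at chr4:5267773-5288657 and a run of 23 at chr4:6970058-6999759. In these 5 runs there were 4.82 to 7.74 DMRs per 10 kb. The 5 runs of at least 15 of Ox1 in the HN field, also all hyper, were spread over 74.1 to 177.8 kb, with 0.84 to 2.03 DMRs per 10 kb. Ox1 in the NN field had 1 such run, of 16 hypo-DMRs at chr4:3734937-3804375, and the longest run of WYG7 in the NN field had 11. Long runs were not particular to the arm, since the long arm had one of 57 DMRs for WYG7 in the HN field.

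Neighbouring DMRs had the same direction in 61.7% of pairs for Ox1 in the HN field, where independent directions would give 61.5%, and in 58.8% for WYG7 there, where they would give 50.1%. The shares in the NN field were 53.8% for Ox1, beside 56.4% for independent directions, and 55.6% for WYG7, beside 54.1%. Among the 4 short arm shares, that of WYG7 in the HN field was above independent directions by more than its interval (55.7 to 61.8), and without the dense windows it was 54.7% (51.4 to 58.0), against 50.2% for independent directions. The long arm of the same comparison had 55.3% (52.7 to 57.8), against 50.3%, so this was not a trait of the short arm alone.

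**Figure D4:**
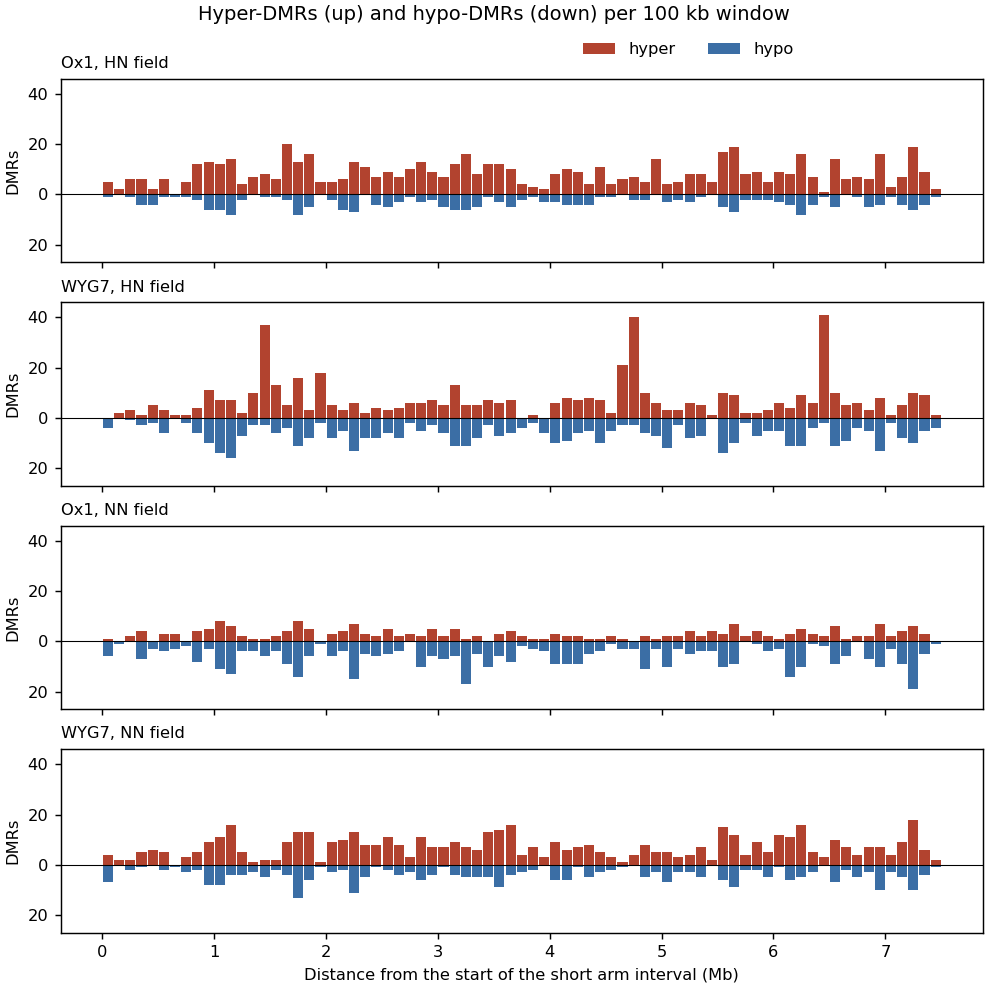
Hyper-DMRs (upward bars) and hypo-DMRs (downward bars) in the 75 windows of 100 kb of the short arm (x axis, distance from its start in Mb), 1 panel for each comparison of LN with HN parent seed. The 3 tall upward bars of WYG7 in the HN field, of 37, 40 and 41 hyper-DMRs, have no counterpart in the other panels, where hyper-DMRs prevail for Ox1 in the HN field and WYG7 in the NN field and hypo-DMRs for Ox1 in the NN field.

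In windows of 500 kb the prevailing direction was spread over the arm in 3 comparisons. All 15 windows had more hyper- than hypo-DMRs for Ox1 in the HN field (67.2% to 87.8% hyper) and for WYG7 in the NN field (53.8% to 75.8%). All 15 had more hypo-DMRs for Ox1 in the NN field, with 18.2% to 42.9% hyper. For WYG7 in the HN field 6 windows were mostly hyper and 9 mostly hypo, with 32.3% to 76.7% hyper.

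The same places were rich in DMRs in different comparisons. Over the 75 windows of 100 kb, the counts of the 3 comparisons other than WYG7 in the HN field went together, with Pearson's r of 0.78 to 0.82 for their 3 pairs. With WYG7 in the HN field r was 0.28 to 0.35, and 0.60 to 0.66 once the 3 dense windows were left out. Those windows were chosen as peaks of that list alone, so leaving them out raises r by construction. On the long arm r was 0.70 to 0.80 over every pair of comparisons, so the likeness was not particular to the short arm. These values describe windows on one genome, which share their base composition in every list, and carry no test. Many DMRs met a DMR of at least 1 other comparison by 1 bp or more. Among Ox1-DMRs in the HN field the share was 59.98% on the short arm, 65.3% on the long arm and 62.5% of all. Among WYG7-DMRs in the HN field it was 55.5% on the short arm, 64.2% on the long arm and 58.1% of all. It was 61.3% on the short arm without the dense windows, a rise that follows in part from how they were chosen. The NN field gave 71.9%, 69.4% and 69.9% for Ox1-DMRs on the short arm, on the long arm and in all, and 62.5%, 62.5% and 61.3% for WYG7-DMRs. The short arm lay near the whole list of each comparison. Against the long arm it was lower in the HN field, and for WYG7 there its interval (52.5 to 58.6) did not meet that of the long arm (61.8 to 66.6).

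On the short arm, overlapping DMRs shared their direction about as often as independent directions would give. Between Ox1 and WYG7 in the HN field, 32.7% of the short arm DMRs of Ox1 and 28.6% of those of WYG7 overlapped, and 46.4% of these pairs shared their direction, against 49.0% for independent directions. Between the lines in the NN field, 36.1% of the DMRs of Ox1 and 28.1% of those of WYG7 overlapped, and 52.2% of pairs shared it, against 49.7%. Over all 6 pairs of comparisons the same-direction share was 46.4% to 54.98%.

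Merging overlapping DMRs gave 1971 loci on the short arm. Of these, 1262 had a DMR in 1 comparison, 412 in 2, 202 in 3 and 95 in all 4, or 4.82% (95% interval 3.96 to 5.86). On the long arm 171 of 3081 loci, or 5.55% (4.80 to 6.42), were in all 4. Among the 95 loci, 55 had a single direction within each comparison, and 3 of those had the same direction in all 4, against 12 of 94 on the long arm. The most common order of directions, in 9 of the 55, was hyper for Ox1 and for WYG7 in the HN field, hypo for Ox1 in the NN field and hyper for WYG7 there. This order joins the more common direction of short arm DMRs in each comparison. It was also the most common order on the long arm, in 12 of 94. Hyper-DMRs prevailed in some lists and hypo-DMRs in another, which by itself makes one direction throughout uncommon. No share for independent directions was computed for these loci.

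The gene tables list genes whose body or 1 kb promoter met a DMR according to the methods. On the short arm the listed genes met one by at least 52 bp, and 8 unlisted entries over the 4 comparisons met one by at most 44 bp. Of the 620 short arm genes in any table, 363 or 58.5% were listed for Ox1 in the HN field, beside 54.9% of the 19182 genes of the whole genome that were in any table. WYG7 in the HN field had 371 or 59.8%, beside 56.0%. Of the NN field tables, that of Ox1 had 262 or 42.3%, beside 40.9%, and that of WYG7 had 355 or 57.3%, beside 57.0%. The shares were near the background. Counted per Mb, the short arm had 82.7 genes in any table and the long arm 42.2, and their intervals took up 34.4% of the short arm and 17.3% of the long arm. Since a gene enters a table through its DMRs, these counts follow the density of DMRs and do not give the density of all genes.

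DMRs lay inside listed gene intervals at 67.4% on the short arm and 64.7% on the long arm for Ox1 in the HN field. WYG7 there had 68.6% and 65.2%. The NN field gave 66.2% and 64.7% for Ox1, and 67.9% and 63.8% for WYG7. The difference averaged 2.92 ± 1.11 points (SD, n = 4; 4 of 4 positive, exact permutation p = 0.125), and the interval of each comparison held 0. Of Ox1-DMRs in the NN field, 28.2% of those on the short arm inside gene intervals and 39.8% of those outside were hyper, and the whole list gave 30.7% and 38.9%. The gap was smaller in the other comparisons and not always of that sign. The short arm shares inside and outside were 76.0% and 69.9% for Ox1 and 50.9% and 56.4% for WYG7 in the HN field. They were 65.5% and 61.9% for WYG7 in the NN field.

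The directions of short arm genes were near those of all listed genes. Of the 363 short arm genes of Ox1 in the HN field, 241 had hyper-DMRs only, 55 had hypo-DMRs only and 67 had both. Of the 371 of WYG7 there, 133 had hyper-DMRs only, 157 hypo-DMRs only and 81 both. In the NN field 58 genes of Ox1 had hyper-DMRs only, 153 hypo-DMRs only and 51 both, while 199 genes of WYG7 had hyper-DMRs only, 78 hypo-DMRs only and 78 both. Hyper-only genes made up 66.4% of the short arm genes of Ox1 in the HN field, beside 69.0% of all genes listed for it, and 35.8% for WYG7 there, beside 33.7%. They made up 22.1% for Ox1 in the NN field, beside 24.5%, and 56.1% for WYG7, beside 56.8%. For WYG7 in the HN field hypo-only genes outnumbered hyper-only genes, although 52.6% of its short arm DMRs were hyper.

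**Figure D5:**
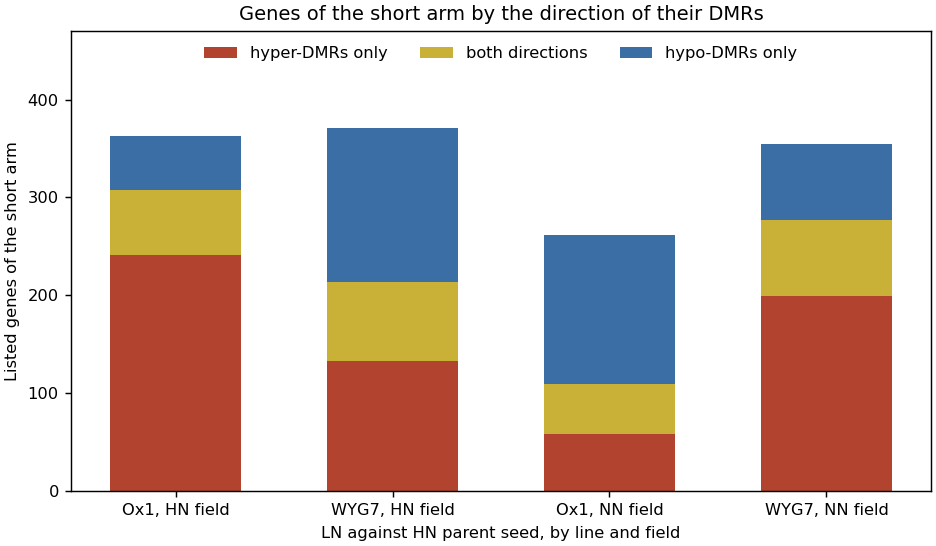
Listed genes of the short arm (y axis) for each comparison of LN with HN parent seed (x axis), stacked by whether their DMRs were hyper only, in both directions or hypo only. The stacks stand at 363 and 371 genes in the HN field and at 262 and 355 in the NN field.

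In all 4 tables there were 108 of the 620 short arm genes, or 17.4%, beside 17.7% of the long arm's 971 and 15.3% of the 19182. Of the 108, 24 had a single direction within each comparison. The most common order, in 7 of the 24, was hyper for Ox1 and hypo for WYG7 in the HN field, and hypo for Ox1 and hyper for WYG7 in the NN field. LOC_Os04g02660 (chr4:1003988-1006805) is an example, with 2 hyper-DMRs for Ox1 and 2 hypo-DMRs for WYG7 in the HN field, and 1 hypo-DMR for Ox1 and 3 hyper-DMRs for WYG7 in the NN field. This order joins the more common direction of the short arm genes with a single direction in each comparison. The share that independent directions would give was not computed, and no counts of the long arm are given beside these. The 7 genes are thus not read as a trait of the short arm. Other genes had other orders. LOC_Os04g05410, for one, had hyper-DMRs alone for Ox1 and hypo-DMRs alone for WYG7 in both fields.

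Gene names are not paired with these identifiers in the files, and none matched the RefSeq table at hand, so genes are given by locus and their functions are not described. The gene with most DMRs in any one comparison was LOC_Os04g12610 (chr4:6981485-6988564), inside the third dense window. It had 11 hyper-DMRs and 0 hypo-DMRs for WYG7 in the HN field, which covered 3531 bp of its 7080 bp interval, and it had 0 DMRs in each of the other 3 comparisons. The 11 DMRs were 119 to 657 bp long.

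LOC_Os04g03790 (chr4:1690151-1697305) was the opposite case. It had DMRs in every comparison and in both directions, 34 in all. There were 5 hyper and 5 hypo for Ox1 and 4 hyper and 6 hypo for WYG7 in the HN field, and 3 hyper and 7 hypo for Ox1 and 3 hyper and 1 hypo for WYG7 in the NN field. LOC_Os04g04720 (chr4:2265884-2272507) was next, with 28. It had 2 hyper and 2 hypo for Ox1 and 7 hyper and 3 hypo for WYG7 in the HN field, and 3 hyper and 5 hypo for Ox1 and 3 hyper and 3 hypo for WYG7 in the NN field. LOC_Os04g06144 (chr4:3193463-3207081) leaned one way, with 7 hyper-DMRs for Ox1 and 3 for WYG7 in the HN field, 0 DMRs for Ox1 in the NN field and 3 hyper and 2 hypo for WYG7 there.

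The longest DMR of the short arm was the hyper-DMR chr4:2000749-2005227 of WYG7 in the HN field, 4479 bp long. It overlapped the intervals of LOC_Os04g04270 and LOC_Os04g04280, lay just past the first dense window within the run of 15, and met no DMR of the other comparisons. The longest hypo-DMR of that comparison, chr4:7395474-7397701, had 2228 bp and met the interval of LOC_Os04g13310. It overlapped 1 hyper-DMR of Ox1 in the HN field, 1 hyper-DMR of Ox1 in the NN field and 1 hypo-DMR of WYG7 in the NN field. The longest DMRs of the others were shorter. In Ox1 in the HN field they were a hyper-DMR of 1143 bp at chr4:7070704-7071846 and a hypo-DMR of 986 bp at chr4:7635525-7636510. In Ox1 in the NN field they were a hyper-DMR of 1208 bp at chr4:1107944-1109151 and a hypo-DMR of 1294 bp at chr4:7124363-7125656. In WYG7 in the NN field they were a hyper-DMR of 1066 bp at chr4:6750987-6752052 and a hypo-DMR of 1811 bp at chr4:2270047-2271857, the last within LOC_Os04g04720.

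DMRs of at least 1000 bp numbered 8 for Ox1 and 31 for WYG7 in the HN field, and 5 for Ox1 and 11 for WYG7 in the NN field. These were 0.93%, against 0.90% on the long arm, for Ox1 in the HN field, and 3.10%, against 1.80%, for WYG7 there, beside 0.76% and 2.64% of all DMRs of these comparisons. They were 0.76%, against 1.18%, for Ox1 in the NN field, and 1.33%, against 0.999%, for WYG7 there, beside 0.55% and 0.91% of all. The Wilson intervals of the arms overlapped in every comparison. Of the 31 of WYG7 in the HN field, 27 were hyper and 14 of those lay in the 3 dense windows. All 8 of Ox1 in the HN field were hyper, while 8 of the 11 of WYG7 in the NN field were hypo, although most DMRs of that comparison on the short arm were hyper.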

How the data were processed

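The deposited files are lists of positions, made by the authors from 8 bisulfite libraries, and the unit of their columns is other: start and end in bp with a direction, and gene intervals with identifiers. Per the labels and the paper's methods, the authors aligned reads to IRGSP-1.0 with Bismark 0.9.0 and called DMRs with SMART on cytosines with sufficient coverage. Regions were kept from 100 bp, with a minimum number of cytosines, a minimum methylation difference and a p-value below a cut-off. The annotation version is not given in the sources used here, and the identifiers have the form of MSU loci. The lists hold no reads, levels or p-values, so depth and precision per DMR are unknown.

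Positions were read as 1-based with both ends included. A DMR was placed by its midpoint and overlaps needed 1 bp, except that a gene was placed under a longest DMR from 52 bp, the smallest overlap of a listed gene on the short arm. DMR counts got exact Poisson intervals, shares Wilson intervals, ratios conditional binomial intervals and differences Newcombe intervals, all at 95%, with scipy 1.17.1, pandas 2.3.3 and numpy 2.4.6 under Python 3.11.15. Figures were drawn with matplotlib 3.10.9. Functions were tested on simulated lists. The members, lists and tests were chosen with earlier results of these data known. Genes named are those with most DMRs in a comparison, those under its longest DMRs, and genes in all 4 tables with 1 direction in each. Alternatives were longer or merged DMRs, other arm borders, windows left out and stricter overlaps. Sequence content was not analysed here.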

Additional observations from a re-analysis of the deposited data

Results flagged for a closer look

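The short arm's hyper share was on opposite sides of 50% in 2 pairs of comparisons, with both Wilson intervals clear of 50%. In the NN field, 32.1% of the short arm DMRs were hyper for Ox1 and 64.4% for WYG7, a difference of -32.3 percentage points (Ox1 minus WYG7). Ox1-DMRs were 74.0% hyper in the HN field, against 32.1% in the NN field, a difference of 41.9 points (HN field minus NN field). With 1 library a condition neither difference was tested. All DMRs of the same comparisons gave 33.7% for Ox1 and 64.5% for WYG7 in the NN field and 75.4% for Ox1 in the HN field, so the short arm showed the same contrast as the whole lists.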

How the results depend on the processing

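Of 133 alternative values, 108 stayed within the main interval or 1.5 times the main count, or kept the sign of a mean, while 24 moved and 1 mean reversed. The hyper share difference of WYG7 in the NN field, whose main interval held 0, also changed sign, to -1.15 points with DMRs of at least 200 bp and -0.88 points weighted by length. Without the 3 dense windows, chosen after seeing the data, WYG7 in the HN field had a density ratio of 1.86, a hyper share difference of 0.31 points, a covered share of 3.85%, 54.7% of neighbours with the same direction and 61.3% of DMRs overlapping another comparison, and the mean hyper share difference over the 4 comparisons turned to -0.026 points (exact permutation p = 1). With DMRs of at least 200 bp alone, the density ratio was 2.06 for Ox1 in the NN field and its neighbour share 57.8%. The covered share was then 2.72% for Ox1 and 3.77% for WYG7 in the HN field and 2.08% for Ox1 and 2.99% for WYG7 in the NN field, and the overlapping share was 54.6% for Ox1 and 46.5% for WYG7 in the HN field and 66.0% for Ox1 and 54.0% for WYG7 in the NN field. A reciprocal overlap of 0.5 of each DMR gave 32.7% for Ox1 and 27.1% for WYG7 in the HN field and 38.4% for Ox1 and 33.6% for WYG7 in the NN field, and one of 50 bp gave 67.6% for Ox1 and 58.2% for WYG7 in the NN field. Narrowing the short arm gave WYG7 in the HN field a covered share of 4.81%. Neighbours at most 5 kb apart had the same direction in 58.1% for Ox1 and 61.9% for WYG7 in the HN field. A stricter overlap lowers the overlapping share by construction, and a minimum length lowers the covered share likewise. The dense windows were chosen for their high counts for WYG7 in the HN field. Leaving them out thus lowers the density ratio and covered share of that comparison by construction. The share overlapping another comparison rises likewise, since the other lists were sparse there. Their DMRs were mostly hyper, so the hyper share and the share of neighbours with the same direction fall in the same way. The cause of the other shifts was not tested. The density ratio stayed between 1.77 and 2.18 under every alternative run. No paired test of LN against HN plants was possible because each group has 1 library, and for the same reason no replicate could be left out. Densities per CG site and the cytosine and repeat content were not run, since no genome of this build was at hand.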
